A study of Mus musculus with 15 samples.

Results

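The mammalian circadian clock is a feedback loop of transcription factors, and the 10 genes described here are its core: *Arntl*, which encodes BMAL1, with *Clock* and *Npas2*, the period genes *Per1*, *Per2* and *Per3*, the cryptochromes *Cry1* and *Cry2*, and the nuclear receptors *Nr1d1* and *Nr1d2*. They were taken by name out of 21755 protein-coding genes. BMAL1 pairs with CLOCK or NPAS2 and switches on genes with E-box sequences, PER and CRY proteins hold that pair back, and the REV-ERB receptors encoded by *Nr1d1* and *Nr1d2* repress *Arntl*. In liver the loop runs through the day and night, shifts with the hour of feeding, and times genes of lipid, sugar and bile acid metabolism. H3K4me3, trimethylated lysine 4 of histone H3, marks the starts of active and poised genes.

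H3K4me3 was mapped in the livers of 15 wild-type C57BL/6J female mice by PAT-ChIP-Seq, a chromatin immunoprecipitation from formalin-fixed and paraffin-embedded tissue, with 1 library per mouse and 3 mice per diet. The mice came from 6 litters. SD mice ate a standard diet, HF mice a high-fat diet and YD mice a diet based on yellow corn, all freely. RD mice freely ate a diet based on purple corn, which carries the anthocyanin cyanidin-3-O-glucoside. CR mice were given the standard diet as a daily ration that held 70% of the normal calories. In CR, fewer calories and daily rationing cannot be told apart. The mice were 3 months old when feeding began and were fed for 10 months, although each liver is labelled as 12 months old. The hour of sacrifice is not given in the sources used here.

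Each library was deposited as a list of islands, which are runs of enriched 200-bp windows with a score. The lists held 7825 to 33752 islands. A mean coverage of 0.554 to 1.53 reads per 200-bp window was inferred from the scores of islands 1 window wide, as no reads were counted. In HF 3 and YD 1 it rests on 2 score values. For each gene, the island with the highest score within 1 kb of any of its transcription start sites (TSS) was taken. Its width was read in bp and its rank was read within its own list, with 1 for the highest score, since scores are not scaled between libraries. Lists of different length hold different ranks, so that a rank over 7825 was not possible in YD 1, the shortest list. Islands were found at 6 to 10 of 10 hepatocyte markers per library and at 0 to 4 of 8 Kupffer cell markers, with the highest count of the latter in HF 1. Markers of sinusoidal endothelium had islands at 3 to 8 of 8 genes in the HF mice, 1 to 5 in SD, 2 to 3 in CR, 0 to 1 in YD and 1 in RD, highest in HF and lowest in YD as were the counts of clock genes marked, and their part in the results was not tested. Markers of stellate cells, cholangiocytes and lymphocytes had islands at 0 to 4 of 8, 0 to 2 of 4 and 0 to 1 of 4 genes. Whole liver was used, and fewer cells of a type cannot be told apart from less mark per cell.

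The 250 bases before a RefSeq start (GRCm38.p6, written on the strand of the gene) are shown for the 4 genes on which the results turn. *Nr1d1* had the highest ranks, *Cry1* the widest spread of ranks, and *Per1* and *Per3* the highest ranks in CR. Capitals mark matches on either strand to the E-box CACGTG, bound by BMAL1 with CLOCK, its variant CACGTT, the AGGTCA half-site bound by REV-ERB and ROR receptors, and the D-box TTANGTAA, bound by DBP, TEF and HLF.
Nr1d1, chr11:98775378-98775627, minus strand: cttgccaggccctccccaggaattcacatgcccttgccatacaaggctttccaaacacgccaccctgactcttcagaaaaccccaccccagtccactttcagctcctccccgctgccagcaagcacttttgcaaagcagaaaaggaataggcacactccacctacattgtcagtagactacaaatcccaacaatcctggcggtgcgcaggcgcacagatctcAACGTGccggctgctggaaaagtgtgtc
Per1, chr11:69098699-69098948, plus strand: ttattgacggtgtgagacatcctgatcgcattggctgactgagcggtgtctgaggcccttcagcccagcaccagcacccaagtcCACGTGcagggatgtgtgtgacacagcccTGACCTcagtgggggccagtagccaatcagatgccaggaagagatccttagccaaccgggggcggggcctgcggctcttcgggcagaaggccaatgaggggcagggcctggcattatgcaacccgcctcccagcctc
Per3, chr4:151044666-151044915, minus strand: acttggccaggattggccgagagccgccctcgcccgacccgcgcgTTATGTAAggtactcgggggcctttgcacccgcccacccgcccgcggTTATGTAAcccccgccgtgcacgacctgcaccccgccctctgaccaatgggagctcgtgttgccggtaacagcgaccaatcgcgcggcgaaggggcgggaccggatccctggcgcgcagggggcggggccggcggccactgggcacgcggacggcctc
Cry1, chr10:85185055-85185304, minus strand: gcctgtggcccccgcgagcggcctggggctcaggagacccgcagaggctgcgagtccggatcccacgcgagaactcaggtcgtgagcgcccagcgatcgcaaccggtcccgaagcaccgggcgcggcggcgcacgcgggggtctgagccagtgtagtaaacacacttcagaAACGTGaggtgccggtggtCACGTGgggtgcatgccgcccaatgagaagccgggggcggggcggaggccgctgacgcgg

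*Nr1d1* held 1 variant E-box 28 bases before its start. *Per1* held an E-box 166 bases and a half-site 137 bases before the start. *Per3* held a pair of D-boxes, 205 and 158 bases before the start. *Cry1* held an E-box 60 bases and a variant E-box 79 bases before the start. None of these matches overlapped another. Among 32851 RefSeq promoter stretches of the same length, 6.02% held the E-box, 3.85% the variant, 14.02% the half-site and 2.06% the D-box. Entries were found for 9 of the 10 genes (13 starts), among which 2 genes held an E-box, 3 the variant, 3 the half-site and 1 the D-box. These counts are per gene, some with several starts, and the shares above are per stretch, so they are not like for like. The 13 stretches of the members held a median of 20 CpG dinucleotides, against 6 over all stretches.

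All 10 core clock genes had an island in at least 1 library, and 104 of the 150 gene and library pairs (69.3%) were marked. *Nr1d1* was marked in all 15 libraries, *Arntl* in 14, *Cry1* and *Cry2* in 13, *Per3* in 10, *Per1* and *Per2* in 9, *Clock* and *Nr1d2* in 8, and *Npas2*, the partner of BMAL1 that can stand in for CLOCK, in 5. The median over the members was 9.5 libraries, against 11 over the 13044 coding genes marked at least once. Only *Nr1d1* belonged to the 2059 coding genes with an island in every library.

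By median rank *Nr1d1* stood first at 682, with a range of 384 to 2428. *Per1* followed at 1821 (505 to 14619), then *Cry2* at 2434 (700 to 7516), *Cry1* at 4539 (593 to 23451), *Clock* at 4588 (2303 to 7993), *Arntl* at 6395.5 (2516 to 12404), *Nr1d2* at 6900.5 (3596 to 11680), *Per2* at 6943 (1728 to 19788), *Npas2* at 8568 (5505 to 10924) and *Per3* at 9662.5 (3371 to 16172). These medians cover only the libraries with an island. Every pair of neighbours in this order overlapped in range, so the order of neighbours is not set beyond the spread between mice.

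**Figure D1:**
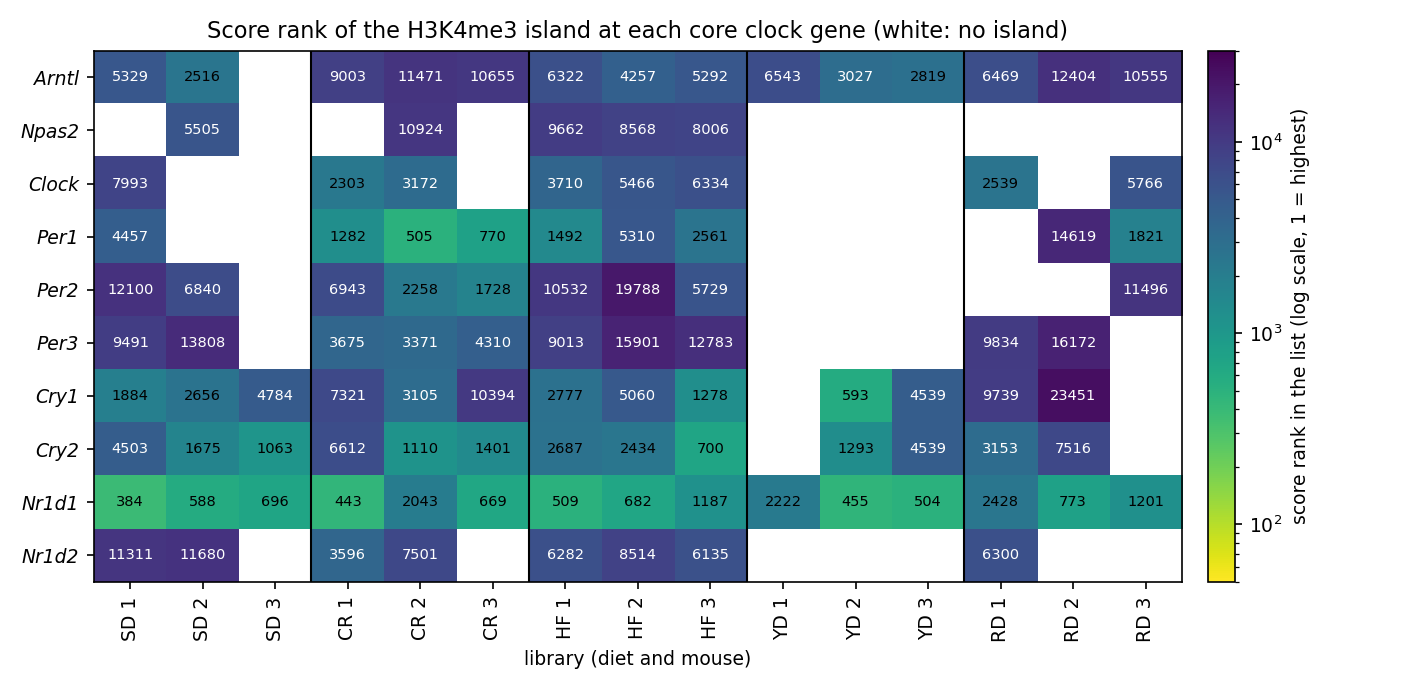
Score rank of the island at the 10 core clock genes (rows, ordered by role) in the 15 libraries (columns, by diet), with the rank printed in each cell and coloured on a log scale, and white where no island lay within 1 kb of a TSS. The *Nr1d1* row is filled in all 15 libraries, and 6 rows are white in the 3 YD libraries.

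Diets differed in how many of the 10 genes were marked. The SD libraries held islands at 9, 8 and 3 of them, the CR libraries at 9, 10 and 7, the HF libraries at 10, 10 and 10, the YD libraries at 2, 4 and 4, and the RD libraries at 7, 6 and 5. The YD mice lay below all other mice except SD 3, which lay among them. The share of all coding genes marked ran alongside, at 32.7% to 43.1% in SD, 35.5% to 48.2% in CR, 47.6% to 54.6% in HF, 17.5% to 26.5% in YD and 27.8% to 34.7% in RD. Over the 15 libraries the 2 counts had a Pearson r of 0.842, given as a description because both come from the same lists and share their depth.

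**Figure D2:**
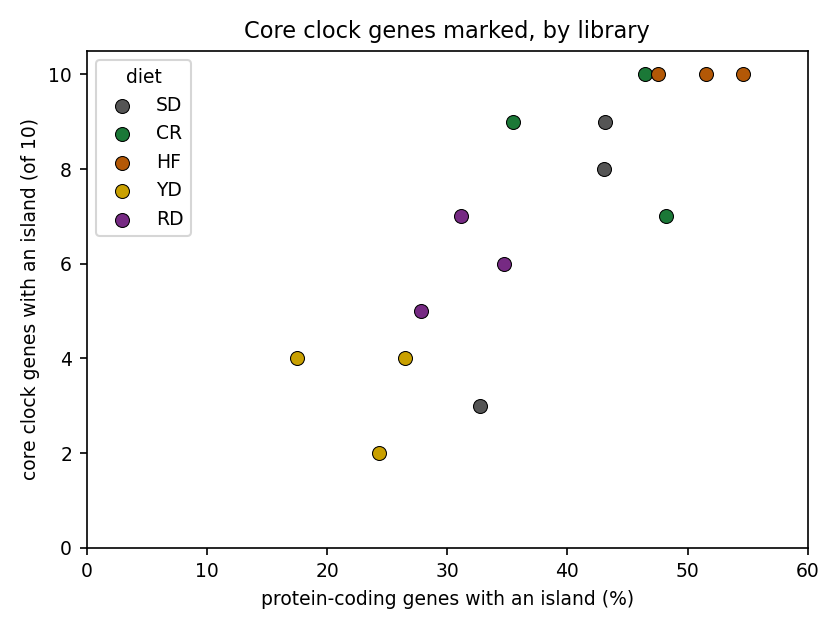
Number of the 10 core clock genes with an island (vertical axis) against the share of protein-coding genes with an island (horizontal axis, %), 1 point per library, coloured by diet. The 3 YD libraries sit at the lower left with 2, 4 and 4 genes, and the 3 HF libraries at the upper right with 10 each.

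In HF, 10 of 10 members were marked in all 3 mice, as were 76.0% of the coding genes marked anywhere. In SD the count was 3 of 10 (*Cry1*, *Cry2* and *Nr1d1*, background 48.6%), in CR 7 of 10 (55.1%), and in both corn diets 2 of 10, *Arntl* and *Nr1d1* (19.9% in YD and 34.1% in RD). When each list was shortened to its 7825 highest islands, the counts were 6 of 10 in HF (background 61.5%), without *Npas2*, *Per2*, *Per3* and *Nr1d2*, 3 in SD (44.1%), 5 in CR (45.5%), 2 in YD (21.4%) and 1 in RD (23.4%), and *Arntl* went from 3 CR mice to 0. No YD mouse had an island at 6 members, *Clock*, *Npas2*, *Per1*, *Per2*, *Per3* and *Nr1d2*. Of the 13044 coding genes marked at least once, 43.8% were without an island in all 3 YD mice. The deposited names of the 3 YD libraries end in consecutive numbers, followed by that of RD 2, so that a shared run, if these numbers mark one, cannot be told apart from the YD diet. Presence was tested over the 5 diets by an exact permutation test of the chi-square statistic. Of 10985 genes, 0 passed the adjusted threshold (0%) and 1233 (11.2%) had an unadjusted p under 0.05. None of the 9 members tested was among the latter, and their lowest exact p was 0.110, shared by *Npas2*, *Per1*, *Per2* and *Per3*. With equal list length *Per3* was marked in the 3 CR mice alone. It entered that test only through the diet in which it was high, so its p is not given. Of the genes tested at equal list length, 0 of 9101 (0%) passed the adjusted threshold and 4.7% had an unadjusted p under 0.05. A comparison of 3 mice with 3 cannot give an exact p under 0.1, so no pair of diets was tested alone.

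The positive arm of the loop was marked unevenly. At *Arntl* (chr7:113207465-113314126, plus strand), the ranks were 5329 and 2516 in SD 1 and SD 2, with no island in SD 3. They were 9003, 11471 and 10655 in CR, 6322, 4257 and 5292 in HF, 6543, 3027 and 2819 in YD, and 6469, 12404 and 10555 in RD. The CR mice thus lay below all SD, HF and YD mice that had an island, and overlapped RD. As a share of the list from the top, CR spanned 31.6% to 77.9% and YD 25.8% to 83.6%, and HF 3 lay at 39.2%, so that on this scale CR overlapped both HF and YD. *Arntl* islands were 1800 bp in both marked SD mice and 800 bp in all 3 RD mice, with 1000 to 1400 bp in CR, 1600 to 2200 bp in HF and 800 to 1400 bp in YD. In a limma fit of log2 rank in which missing islands and ranks past 7825 were set to 7826, an alternative chosen after seeing the data, *Arntl* differed by 0.94 ± 0.424 (SE) on the log2 scale in RD against YD, a lower place in the list (limma unadjusted p = 0.0441, adjusted p = 0.965). The size of this difference rests in part on the floor, which stood for RD 2 and RD 3. As a share of the list RD spanned 38.6% to 83.4%, inside the YD range. Over all 7839 genes in that fit, 4.81% had an unadjusted p under 0.05 in RD against YD, and 0 of them (0%) passed the adjusted threshold.

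*Clock* (chr5:76209868-76304792, minus strand) was marked in SD 1 at rank 7993, in CR 1 and CR 2 at 2303 and 3172, in HF at 3710, 5466 and 6334, and in RD 1 and RD 3 at 2539 and 5766. The 3 HF mice lay above the 3 SD mice in rank, but as a share of the list HF 3 at 46.9% came after SD 1 at 34.6%. In all 8 marked libraries the island was shared with the antisense gene Gm7467, and in 1 also with Gm43658, so the mark cannot be assigned to *Clock* alone. *Npas2* (chr1:39193731-39363236, plus strand) was marked in SD 2 at 5505, in CR 2 at 10924 and in HF at 9662, 8568 and 8006. No YD and no RD mouse had an island there.

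Each period gene had its highest rank in a CR mouse. *Per1* (chr11:69095217-69109960, plus strand), which glucocorticoids induce rapidly, had ranks of 1282, 505 and 770 in CR and 1492, 5310 and 2561 in HF. It was marked in SD 1 alone of the SD mice at 4457, in RD 2 and RD 3 at 14619 and 1821, and in no YD mouse. The CR mice held the 3 highest of the 15 ranks and did not overlap any other diet. *Per2* (chr1:91415982-91459324, minus strand), a main brake on BMAL1, had ranks of 6943, 2258 and 1728 in CR, 12100 and 6840 in SD 1 and SD 2, and 10532, 19788 and 5729 in HF. It was further marked at 11496 in RD 3. CR 1 overlapped SD 2 and HF 3, while CR 2 and CR 3 lay above all other mice. *Per3* (chr4:151003652-151044665, minus strand), the member of the family least needed for the rhythm, had ranks of 3675, 3371 and 4310 in CR. Those of the other mice were 9491 and 13808 in SD 1 and SD 2, 9013, 15901 and 12783 in HF, and 9834 and 16172 in RD 1 and RD 2. Here too the CR mice held the 3 highest ranks of 15.

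In counts, 2 of 10 members (*Per1* and *Per3*) had the 3 CR mice at the 3 highest ranks, against 0.429% of 13044 coding genes, and this rule was chosen after seeing the values. With rank as a share of the list it was 1 of 10 (*Per3*, background 0.498%), since HF 1 at 7.01% came before CR 1 at 8.87% for *Per1*. With rank among islands at coding genes alone it was 3 of 10 (*Per1*, *Per2* and *Per3*, background 0.437%). Compared with SD alone, all 3 CR mice lay above all 3 SD mice at *Per1* and *Per3*, or 2 of 10 members against 4.39% of genes, and the same 2 genes were found with rank as a share of the list (5.31%). No member had its 3 highest ranks in the 3 mice of any other diet, where the backgrounds were 0.138% (SD), 2.48% (HF), 0.0843% (YD) and 0.023% (RD).

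The floored fit held 8 members, without *Npas2* and *Per3*. *Per2* had 5 lists inside the floor and 2 without the CR mice, so it entered the fit through the diet in which it was high, and its test in CR against SD is not given. *Per1* and *Clock* each had 5 without the CR mice. *Per1* differed by −3.03 ± 0.595 (SE) on the log2 rank scale in CR against SD, that is nearer the top (limma unadjusted p = 0.000188), and it missed the adjusted threshold (adjusted p = 0.164). The size of this *Per1* difference rests on the floor, which stood for 2 of the 3 SD values. At *Clock* all 3 SD values and that of CR 3 were the floor itself. Its difference and spread in CR against SD therefore rest on the floor, and its test is not given. Of all genes 5.61% had an unadjusted p under 0.05 in this contrast, and 0 of 7839 genes (0%) passed the adjusted threshold. The deposited name of CR 1 is the 1 name with an age of 12 months, where 4 others carry 10 months. CR 1, CR 2, HF 2, HF 3 and RD 1 carry the library name form PATChIP, and no SD or YD library does, so form and diet are partly confounded. These 5 libraries had 9, 10, 10, 10 and 7 members marked, and the other 10 had 2 to 10. The part of the form in these counts was not tested. With the name form as a term in the fit, the difference of *Per1* was −3.57 (adjusted p = 0.182). In YD, RD and HF against SD, none of the members it held had an unadjusted p under 0.05, against 10.3%, 10.3% and 6.47% of genes. All comparisons with SD share the same 3 SD libraries, of which SD 3 had 3 members marked.

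**Figure D3:**
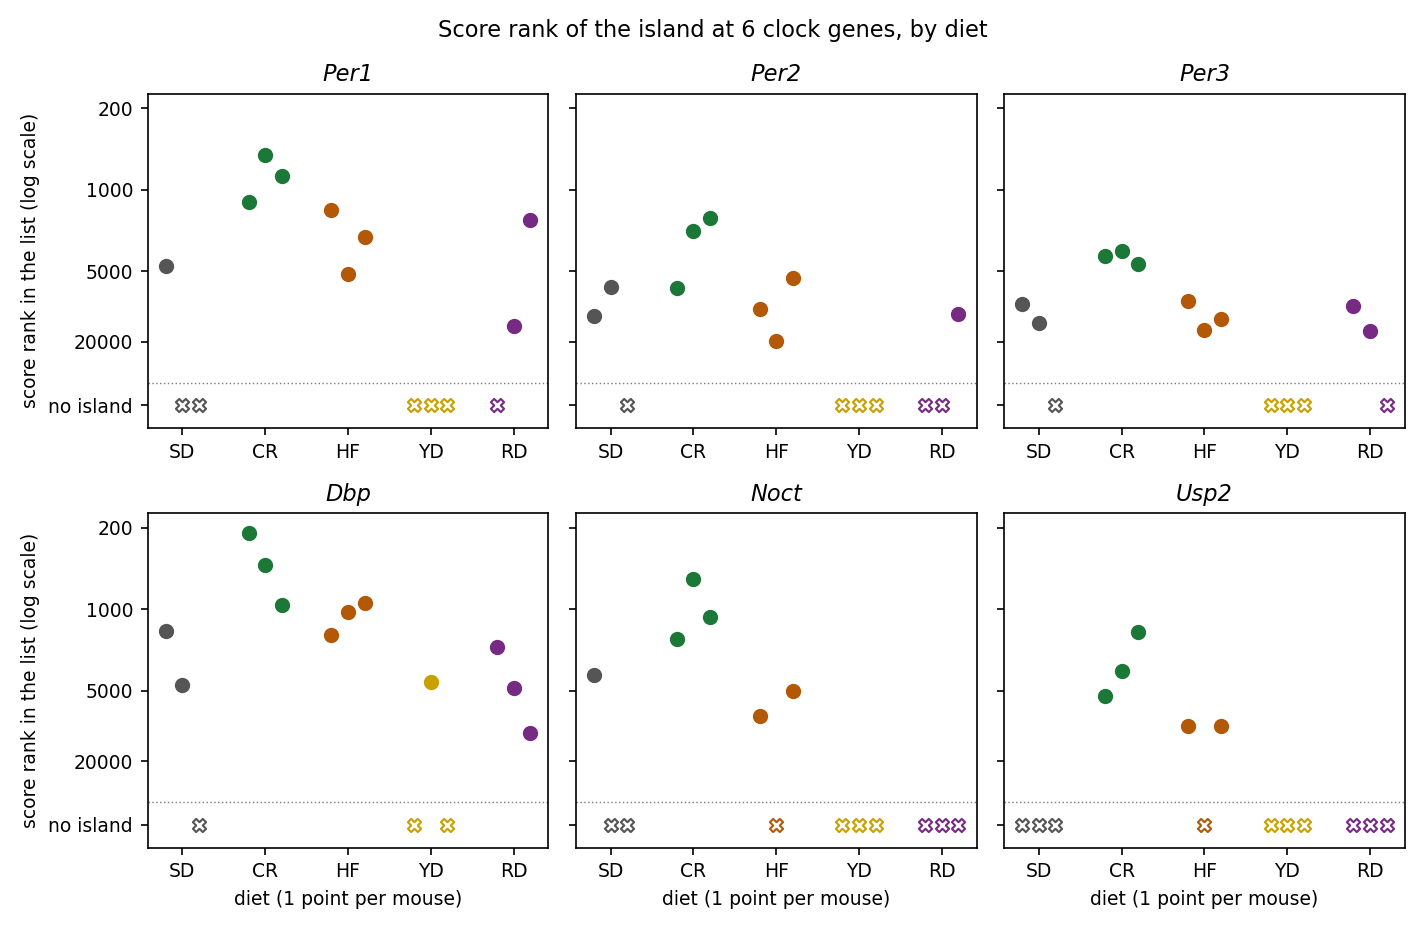
Score rank within the list (vertical axis, log scale, highest at the top) of the island at *Per1*, *Per2*, *Per3*, *Dbp*, *Noct* and *Usp2* by diet, 1 point per mouse, with crosses under the dotted line where no island was found. The CR points lie above those of the other diets at *Per1*, *Per3*, *Noct* and *Usp2*, while at *Per2* the rank of 6943 in CR 1 and at *Dbp* the rank of 923 in CR 3 overlap other diets.

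*Per1* has 3 annotated promoters, the second 3731 bp and the third 4935 bp downstream of the first. The start of the first lay inside an island in 7 libraries (SD 1, CR 1, CR 2, the 3 HF mice and RD 3). The start of the second, at the last base of the *Per1* sequence, lay inside an island in all 3 CR mice and in HF 1 and HF 3, and in no SD, YD or RD mouse. The start of the third lay inside an island in HF 1 and RD 2. In CR 2 a single island of 4600 bp ran over the first and the second promoter, whereas CR 1, CR 3, HF 1 and HF 3 had separate islands. In RD 2 the only island lay at the downstream promoters. The highest-scoring *Per1* islands were 2000 to 4600 bp wide in CR, 2000 to 4000 bp in HF, 2000 bp in SD 1 and 1800 to 2000 bp in RD. Islands at *Per2* were 1800, 3000 and 2800 bp in CR and 1400 and 800 bp in SD, so that the 3 CR mice were wider than the 3 SD mice. *Per2* was the only member for which this held (1 of 10, background 5.17%). At *Per3* the widths were 1200, 3400 and 1000 bp in CR, 1600 and 1000 bp in SD, 2400, 800 and 1000 bp in HF, and 1400 and 1000 bp in RD, and the diets overlapped.

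**Figure D4:**
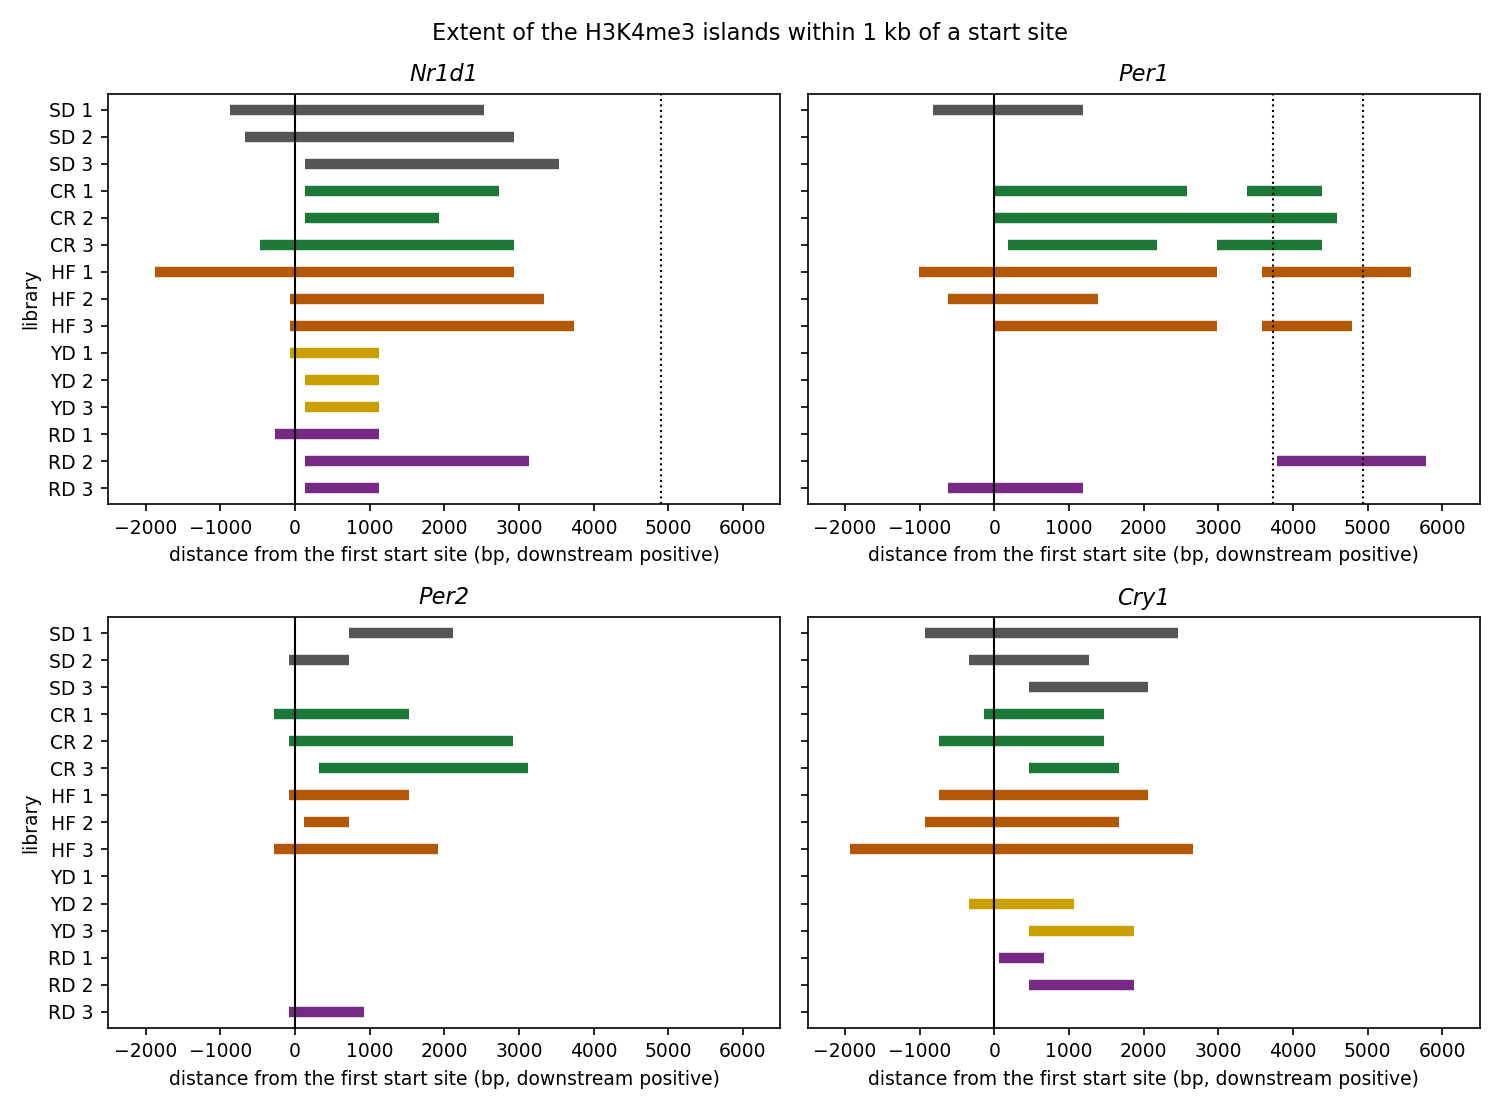
Extent of the islands at *Nr1d1*, *Per1*, *Per2* and *Cry1* in each library, as the distance in bp from the most upstream annotated start (solid line, downstream positive), coloured by diet, with dotted lines at further promoters. At *Nr1d1* the 3 YD islands end 1132 bp downstream of the start, and at *Per1* the islands of the 3 CR mice reach past the second promoter at 3731 bp.

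The cryptochromes, which repress BMAL1 together with the PER proteins, were marked in all SD, CR and HF mice. *Cry1* (chr10:85131700-85185064, minus strand) had ranks of 1884, 2656 and 4784 in SD, 7321, 3105 and 10394 in CR, 2777, 5060 and 1278 in HF, 593 and 4539 in YD 2 and YD 3, and 9739 and 23451 in RD 1 and RD 2. The RD mice lay below all SD mice, and the CR and SD mice overlapped. *Cry1* islands were 3400, 1600 and 1600 bp in SD, 2800, 2600 and 4600 bp in HF, 1400 bp in both marked YD mice, and 600 and 1400 bp in RD. *Cry2* (chr2:92403646-92434043, minus strand) had ranks of 4503, 1675 and 1063 in SD, 6612, 1110 and 1401 in CR, 2687, 2434 and 700 in HF, 1293 and 4539 in YD 2 and YD 3, and 3153 and 7516 in RD 1 and RD 2. Among the mice with an island, all pairs of diets overlapped in rank except HF and RD, where the 3 HF mice lay above both RD mice. Its start at the noncoding promoter 1651 bp inside the gene lay inside an island in all 13 marked libraries, and that of the coding promoter in 7. The islands at *Cry2* were 2800 to 3200 bp in SD and HF, 1800 to 3600 bp in CR, 2600 and 1000 bp in YD, and 1000 and 3000 bp in RD.

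*Nr1d1* (chr11:98767932-98775333, minus strand), whose product REV-ERBalpha represses *Arntl* and genes of lipid metabolism, had ranks of 2428 or better in every mouse, and its island was narrow in the YD mice. The widths were 3400, 3600 and 3400 bp in SD, 2600, 1800 and 3400 bp in CR, 4800, 3400 and 3800 bp in HF, 1200, 1000 and 1000 bp in YD, and 1400, 3000 and 1000 bp in RD. The mean was 3467 ± 115 bp in SD, 1067 ± 115 bp in YD and 1800 ± 1058 bp in RD (standard deviation, n = 3 each), and the YD mice did not overlap the SD, CR or HF mice. The median island ran from 667 bp before to 2932 bp after the start in SD and from 133 to 1132 bp after it in YD and in RD.

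In the limma fit of log2 width over 2059 genes, the *Nr1d1* island differed by −1.71 ± 0.365 (SE) in YD against SD (limma unadjusted p = 0.000341) and missed the adjusted threshold (adjusted p = 0.111). The fit called 0 genes (0%) in this contrast, with 342 (16.6%) at an unadjusted p under 0.05, and the median of all genes was itself shifted by −0.49. Relative to the library medians the difference of *Nr1d1* was −1.14 (adjusted p = 0.393). YD 1 had the highest inferred mean coverage, at 1.53 reads per window, and its part in this difference was not tested. Without YD 1 the fit took the genes with an island in all other lists. That set is not the 2059 genes above, so the share called is not given. The *Nr1d1* difference was then −1.79 and passed (adjusted p = 0.0197), as 1 of 311 genes called. In RD against SD the difference was −1.10 ± 0.365 (limma unadjusted p = 0.00900, adjusted p = 0.652), where 0 genes (0%) were called, 142 (6.9%) had an unadjusted p under 0.05 and the median of all genes was −0.29. The other 3 width contrasts of *Nr1d1*, HF and CR against SD and RD against YD, gave differences of 0.19, −0.46 and 0.60, none with an unadjusted p under 0.05, and the fit called 0 genes in each with 123 (5.97%), 50 (2.43%) and 122 (5.93%) at an unadjusted p under 0.05.

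The ranks of *Nr1d1* were 384, 588 and 696 in SD, 443, 2043 and 669 in CR, 509, 682 and 1187 in HF, 2222, 455 and 504 in YD, and 2428, 773 and 1201 in RD. In rank only RD failed to overlap SD, and as a share of the list RD 2 at 2.41% lay inside the SD range of 1.66% to 6.63%. The limma differences in log2 rank ran from 0.46 in HF to 1.28 in RD against SD, and the lowest unadjusted p over the 5 contrasts was 0.0947. The fit called 2 of 2059 genes (0.0971%) in YD and 2 (0.0971%) in RD against SD and 0 in the other 3 contrasts, and no clock gene was among those called. The share at an unadjusted p under 0.05 was 8.69% in YD, 12.9% in RD, 4.86% in HF and 4.76% in CR against SD and 7.38% in RD against YD. Over the 15 libraries, the genes whose log2 rank was most like that of *Nr1d1*, out of 2058, were *Dr1*, a repressor of RNA polymerase II initiation (Pearson r = 0.817), and *Ndufs7*, a subunit of respiratory complex I (r = 0.702). The points share library and depth. *Nr1d2* (chr14:18204054-18239127, minus strand), the gene of the sister receptor REV-ERBbeta, had ranks of 11311 and 11680 in SD 1 and SD 2, 3596 and 7501 in CR 1 and CR 2, 6282, 8514 and 6135 in HF, and 6300 in RD 1. The 3 HF mice lay above the 3 SD mice, and no YD mouse was marked.

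Counts of genes without overlap between diets set these members against the rest. In YD against SD, the 3 YD islands were narrower, or absent, at *Cry1*, *Cry2* and *Nr1d1* (3 of 10, background 16.9%), and *Per2*, *Per3* and *Nr1d2* had no island in YD and at least 2 in SD (3 of 10, background 19.1%). In rank 0 of 10 members had the 3 YD mice below the 3 SD mice, against 13.3% of genes. In RD against SD, *Cry1* and *Nr1d1* were narrower (2 of 10, 8.87%) and lower in rank (2 of 10, 13.5%). In HF against SD, *Clock* and *Nr1d2* were higher in rank (2 of 10, 12.3%) and *Npas2* was wider (1 of 10, 16.2%). In RD against YD, *Clock*, *Per1* and *Per3* had an island in 2 RD mice and in no YD mouse (3 of 9, 8.65%), and none of the 9 changed without overlap in rank, where 4.0% of genes were higher and 3.12% lower. In the opposite directions 0 of 10 members were called against SD, where 0.921% of genes were higher in rank and 0.0651% wider in YD, 0.678% higher and 0.379% wider in RD, 1.78% lower and 0.152% narrower in HF, and 3.09% lower and 1.17% narrower in CR. As a share of the list, the members lower in RD than SD were *Cry1* and *Cry2* (2 of 10, 8.19%), the member higher in HF was *Nr1d2* (1 of 10, 14.4%), 0 of 10 were lower in YD (24.1%) and 0 of 9 were higher in RD than YD (12.6%).

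A TSS lay inside the island in 67 of the 104 marked pairs (64.4%), against 85.2% of 122861 pairs for coding genes. The islands of the members were 600 to 4800 bp wide with a median of 1900 bp, and those of coding genes had a median of 2000 bp. Islands reached further downstream than upstream of the start in all marked libraries for *Arntl*, *Per1*, *Per2*, *Cry1*, *Nr1d1* and *Nr1d2*. This held in 7 of 8 for *Clock*, 4 of 5 for *Npas2* and 9 of 10 for *Per3*. For *Cry2* it was 0 of 13, measured from the noncoding promoter 1651 bp inside the gene. The other members were measured from their first promoter, so the *Cry2* count is not like for like. At *Arntl*, 11 of 14 islands began downstream of the start, with a median extent of 336 to 1235 bp after it.

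Of 20 further genes of the clock, 19 were marked at least once. *Bhlhe40*, a repressor that competes for E-boxes, and *Rora*, an activator of *Arntl*, were marked in all 15 libraries, and *Rorb*, which is a gene of brain and retina, in none. Several outputs of the loop also had their highest rank in a CR mouse. *Dbp*, a transcription factor switched on through E-boxes, had ranks of 221, 414 and 923 in CR, 1669, 1050 and 876 in HF, 1546 and 4406 in SD 1 and SD 2, 4209 in YD 2, and 2116, 4707 and 11496 in RD. *Noct*, which encodes the phosphatase nocturnin, had ranks of 1789, 553 and 1162 in CR, 3645 in SD 1, and 8175 and 4960 in HF 1 and HF 3. *Usp2*, a rhythmic ubiquitin protease, had ranks of 5536, 3391 and 1569 in CR and 10016 and 9967 in HF 1 and HF 3, with no island in SD, YD or RD. *Ciart*, a repressor of CLOCK and BMAL1, had ranks of 5275, 6917 and 3415 in CR, 10084 in SD 2 and 18747 in HF 1.

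The CR mice held the 3 highest ranks at *Ciart*, *Usp2* and *Noct* (3 of 19, background 0.429%), at these and *Dbp* with rank as a share of the list (4 of 19, 0.498%), and at these, *Dbp* and *Bhlhe41* with rank among coding gene islands (5 of 19, 0.437%). In the floored fit, *Dbp* differed by −3.10 ± 0.665 in log2 rank in CR against SD (adjusted p = 0.210). *Hlf*, a relative of *Dbp*, differed by −2.40 ± 1.03 (adjusted p = 0.841). Both had an unadjusted p under 0.05, as had 5.61% of all genes. The floor stood for SD 3 at *Dbp*, and for SD 2, SD 3 and CR 1 at *Hlf*, so both sizes rest on it. At *Hlf*, CR 1 at rank 10124 lay below SD 1 and SD 2 at 6195 and 7826. *Noct* entered that fit through the CR mice, with 2 lists inside the floor without them, and its test is not given.

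*Bhlhe41*, the sister gene of *Bhlhe40*, was marked in all CR and HF mice, at ranks from 7977 to 18847, and in no other mouse. This was a pattern of 0.161% of coding genes. All of these ranks lie past the end of the shortest list, so that with equal list length it was marked in 0 mice. With islands at or above the median score it was marked in 1 CR mouse. *Bhlhe41* entered the presence test only through the diets in which it was high, so its p is not given. *Tef*, the third factor of the *Dbp* family, was marked in all SD, CR and HF mice at ranks from 3105 to 8017, in RD 1 at 13856 and in no YD mouse (exact permutation p = 0.020, adjusted p = 0.259), and *Usp2* had the same exact p. These 3 of 17 further clock genes had an unadjusted p under 0.05 in the presence test, against 11.2% of all genes. In the floored fit all 3 YD and all 3 RD values of *Tef* were the floor itself, so that its difference from SD is set by the floor and is not given. In HF *Tef* lay lower in the list than in SD, by a log2 rank difference of 0.77 (adjusted p = 0.689) with 1 of the 3 HF values at the floor. *Nfil3*, a repressor at D-boxes, differed by −2.20 ± 0.720 in HF against SD (adjusted p = 0.523), and *Dbp* by −1.71 (adjusted p = 0.689). The floor stood for SD 1 at *Nfil3* and for SD 3 at *Dbp*.

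**Figure D5:**
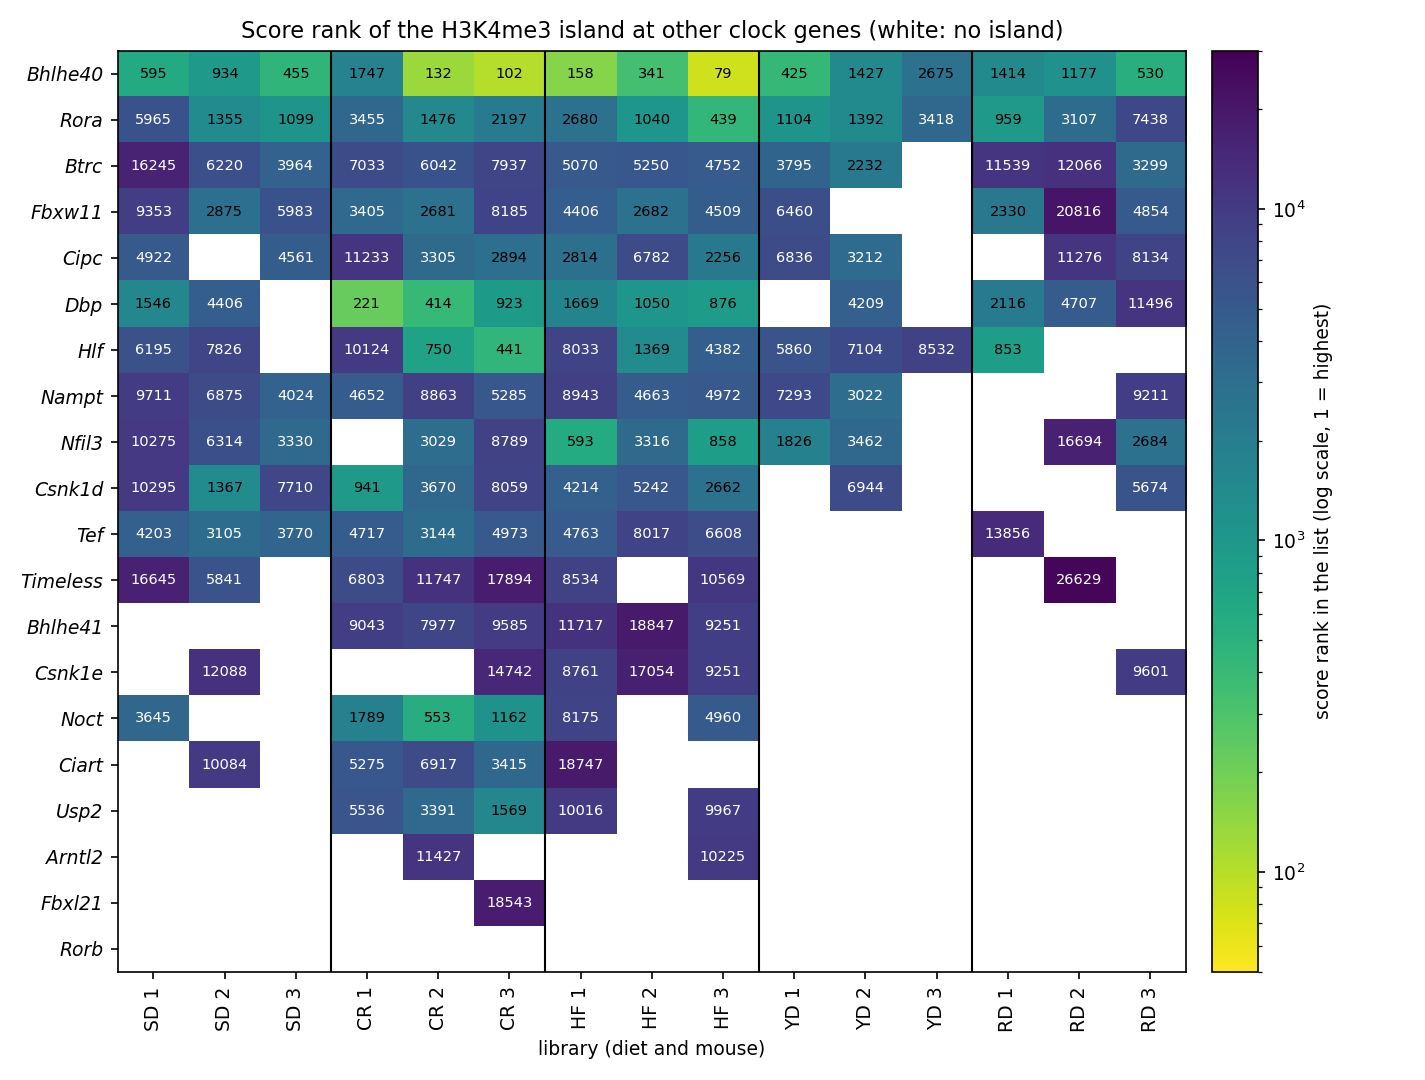
Score rank of the island at 20 further clock genes (rows, by number of libraries marked) in the 15 libraries (columns, by diet), with the rank printed in each cell, coloured on a log scale, and white where no island was found. *Usp2* and *Bhlhe41* are marked in CR and HF mice only, and the YD columns hold 8, 9 and 3 genes.

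Casein kinase genes that phosphorylate PER proteins were marked in 11 libraries (*Csnk1d*) and 6 (*Csnk1e*). Of the genes for ubiquitin ligase subunits that act on CRY and PER, *Btrc* was marked in 14, *Fbxw11* in 13 and *Fbxl21* in 1. *Cipc*, *Dbp*, *Hlf*, *Nampt* and *Nfil3* were each marked in 12, *Tef* in 10, *Timeless* in 8 and *Arntl2* in 2. *Nampt*, the enzyme of NAD salvage, had ranks from 3022 to 9711. *Bhlhe40* lay at 158, 341 and 79 in HF and 595, 934 and 455 in SD without overlap, with a log2 rank difference of −1.96 in the fit over genes marked in all libraries (limma unadjusted p = 0.0451, adjusted p = 0.984).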

How the data were processed

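PAT-ChIP-Seq for H3K4me3 was run on 15 mouse livers. Reads of 50 bp had been aligned to mm10 with BWA and filtered with SAMtools (MAPQ of at least 1, duplicates removed, chromosomes 1 to 19 and X), and islands had been called per library with SICER2 (fragment and window of 200 bp, gap of 400 bp, FDR under 0.05), with versions not given in the sources used here. The score that the authors deposited for each island is the sum over its windows of minus the natural log of a Poisson probability. Diets and replicate numbers were taken from the sample labels, and p-values measure the spread between mice.

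Starts were those of GENCODE M21. Log2 width and log2 rank of the 2059 coding genes with an island in all 15 lists were fitted with limma 3.58.1 in R 4.3.3. The fit had a mean per diet and two-sided tests. Presence was tested in Python 3.11.15 by an exact permutation test. Its p is the share of relabellings with a chi-square statistic at least as high as that observed. The limma fits and the presence test were Benjamini-Hochberg adjusted over all genes at 0.05 and tested on simulated data. The rank fit with a floor (7826, genes with at least 5 lists inside it) and the rules on non-overlapping ranks and widths were added after seeing the data. The 10 members, the further clock genes and the markers were chosen with earlier results of these data known. Differences with a p are named for members where the unadjusted p was under 0.05, and further clock genes where an island was missing. A further 2 genes of the clock are not reported here and enter no count. Bhlhe40 and Rora were named after their values were seen. TSSs less than 500 bp apart formed 1 promoter. Read counts and input were not used here, so no counting error is given.

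Alternatives were a TSS inside the island or within 3 kb, coding transcripts, equal list length, islands above the median score or of at least 600 bp, untransformed or centred values, genes in at least 12 lists, summed width, rank among coding promoters, name form, replicate block and omission of each mouse.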

Additional observations from a re-analysis of the deposited data

How the results depend on the processing

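Limits: 3 mice per diet, islands without read counts, lists of unequal length, and an inferred mean coverage that differed between libraries bound all of these results. Ranks past 7825 do not exist in the shortest list, so low ranks and absence were not separable at this depth. The numbers of genes called by limma moved as follows. With TSSs within 3 kb, rank called 0 genes in YD and 0 in RD against SD. With an equal list length, rank called 6 in YD, 0 in RD and 1 in HF against SD. With islands at or above the median score, rank called 1 in HF and 3 in CR against SD. Untransformed values gave 2 for width in HF against SD, and for rank 8 in RD, 2 in HF and 4 in CR against SD and 1 in RD against YD. Libraries centred on their median gave 1 for width in RD and 1 for rank in HF against SD. Rank among coding promoters gave 1 in HF against SD, and the name form as a term gave 1 for rank in RD against YD. The cause was not tested in any of these.

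With each mouse left out in turn, width called 0 to 311 genes in YD, 0 to 1 in RD, 0 to 1 in HF and 0 in CR against SD, and 0 to 49 in RD against YD, both maxima without YD 1. Rank called 2 to 7 in YD, 0 to 3 in RD, 0 to 3 in HF and 0 to 2 in CR against SD, and 0 in RD against YD. Rank with a floor called 0 to 2, 0 to 2, 0 to 10 (without HF 2), 0 to 9 (without CR 1) and 0 to 1 in the same order, and presence called 0 in every case.

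The width difference of Nr1d1 in YD kept its direction in every alternative and leave-out run that held it (with a TSS inside the island it left the fit), from −1.79 to −1.14 on the log2 scale, with adjusted p from 0.0197 to 0.415, and passed only without YD 1. That of Per1 in CR by rank with a floor ran from −3.57 to −2.71, with adjusted p from 0.0571 to 0.687. A replicate number shared across diets names separate animals, whose deviations correlated at −0.200 to 0.263 with 3 of 30 pairs over 0.1 and 5 of 15 libraries closest to their own number, so the numbers do not pair the samples. Under the replicate block, limma called 0 genes for width in all 5 contrasts and 2, 2, 0, 0 and 0 for rank, the exact presence test called 0, and no other call changed.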
